A study of Mus musculus with 8 samples.

Results

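A set of 10 cadherin genes, of the 52325 genes in the deposited count table, was followed in laser-captured mouse endometrium. They were chosen by symbol: the classical and related cadherins Cdh1, Cdh2, Cdh3, Cdh11, Cdh13 and Cdh16, and the giant Fat cadherins Fat1, Fat2, Fat3 and Fat4. The study asked how a mutated thyroid hormone receptor alters the uterus. Endometrium was cut by laser from frozen uterine sections of 4 wild-type (WT) and 4 Thra1PV/+ female mice, all taken at metestrus, and sequenced as bulk mRNA. Thra1PV/+ mice are heterozygous for the PV mutation of Thra in every cell, so that 1 allele is intact. The mutant receptor, TRα1PV, has an altered C-terminus and acts in a dominant negative manner. With as many mice as libraries in each genotype, each library stands for 1 mouse. The ages of these 8 mice are not given in the sources used here.

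Cadherins are calcium-dependent adhesion molecules of the cell surface. Classical cadherins bind their own kind on the neighboring cell and are tied through catenins to the actin cytoskeleton, and tissue layers differ in which of them they carry. E-cadherin (Cdh1) holds epithelial sheets together, P-cadherin (Cdh3) is typical of the basal layer of stratified epithelia, and N-cadherin (Cdh2) and cadherin-11 (Cdh11) are typical of mesenchyme. Fat cadherins have very long extracellular regions and take part in cell polarity and growth control, including the Hippo pathway.

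Library totals ranged from 48791883 to 59819099 estimated counts. Levels are counts scaled to library size (CPM) after TMM normalization unless TPM, which is scaled by transcript length, is named. A gene was called changed where edgeR's quasi-likelihood test gave at least a 2-fold difference with an adjusted p of at most 0.1. Of the 18174 genes tested, 180 were called (0.990%), of which 168 were higher in Thra1PV/+ endometrium (0.924%) and 12 lower (0.0660%), and the median log2 fold change was -0.05. Some libraries differed in the tissue they held. WT library 1 had a summed level of 7 smooth muscle markers of 12861 CPM, while the remaining WT libraries had 534 to 1108 CPM and Thra1PV/+ had 125 to 649 CPM. Thra1PV/+ library 1 and WT libraries 1 and 2 had the highest summed levels of 9 stromal markers (5757 to 6385 CPM, against 515 to 2098 CPM) and the lowest of 10 simple epithelium markers (2379 to 2868 CPM, against 4502 to 6533 CPM). In such bulk tissue, fewer cells of a type and less RNA per cell cannot be told apart. Thra itself, which the mutation alters without removing its transcript, had 80.1 ± 34.2 CPM in Thra1PV/+ and 78.0 ± 33.7 CPM in WT (SD, n = 4).

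All 10 cadherins passed the filter on low counts. One gene, Fat2, was called, and it was higher in Thra1PV/+ endometrium. The CPM of the genotypes did not overlap for 3 of the 10 genes (Fat2 and Fat1 higher, Cdh16 lower), and 6.04% of all tested genes had no overlap. The median log2 fold change of the 10 genes was -0.04, with 5 of 10 above 0, beside 43.2% of all tested genes. An unadjusted p under 0.05 was found for 5 of the 10 (Fat2, Fat1 and Cdh13 higher, Cdh16 and Fat3 lower), beside 9.77% of all tested genes, and 4 of these 5 were not called.

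**Figure D1:**
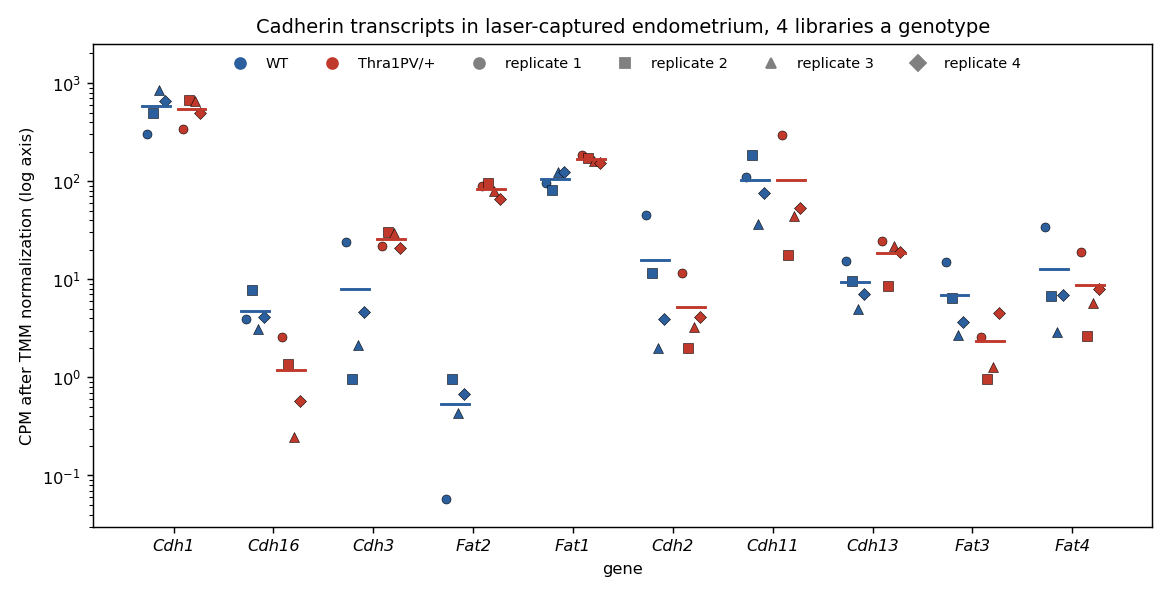
CPM of each cadherin (log axis) in the 4 WT and 4 Thra1PV/+ libraries, with a symbol for each replicate number and a bar at the genotype mean. Fat2 lies between 66.4 and 95.1 CPM in Thra1PV/+ and under 1 CPM in every WT library, while Cdh1 and Cdh11 overlap between the genotypes.

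Per transcript length, E-cadherin was by far the most abundant of the 10. Its deposited TPM was 99.1, 174, 167 and 138 in Thra1PV/+ libraries 1 to 4 and 77.4, 140, 210 and 165 in WT libraries 1 to 4. It made up 69.6 ± 17.0% of the summed TPM of the 10 cadherins in Thra1PV/+ and 72.9 ± 15.2% in WT (SD, n = 4). Cadherin-11 followed with 12.5 ± 15.7% and 12.8 ± 8.12%, and its share ran from 2.09% in Thra1PV/+ library 2 to 35.9% in Thra1PV/+ library 1. In Thra1PV/+ the mean TPM then fell from Fat1 (16.2 ± 3.06) to Cdh3 (6.38 ± 1.56), Fat2 (6.09 ± 1.01) and Cdh13 (5.30 ± 1.74), and after these from Cdh2 and Cdh16 to Fat4 and Fat3, all under 1.5. In WT the order after Cdh11 was Fat1 (9.80 ± 2.59), Cdh2 (4.52 ± 5.50), Cdh16 (4.10 ± 2.14), Cdh13 (2.78 ± 1.07), Cdh3 (2.03 ± 2.62), Fat3, Fat4 and last Fat2 (0.0421 ± 0.0264). The middle of the WT order was not firm. Without WT library 1, which held 12.6 TPM of Cdh2, the mean of Cdh2 was 1.83 TPM, below Cdh16 and Cdh13, and that of Cdh3 was 0.738 TPM, below Fat3. On CPM per kilobase of exon, the mean of Cdh3 stood above those of Cdh16 and Cdh13 in WT, and Fat4 above Fat3. That Cdh3 mean rested on WT library 1 (a share of 5.42%), and in every other WT library Cdh3 lay below Cdh16. Cdh1 did not overlap its neighbor in the order in either genotype, and the other steps without overlap were Fat1 to Cdh3 in Thra1PV/+ and Fat4 to Fat2 in WT. All other neighbors overlapped. Fat2 thus stood among the middle genes of the order in Thra1PV/+ and at its bottom in WT, with 2.91 ± 0.363% against 0.0201 ± 0.0124% of the summed TPM.

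**Figure D2:**
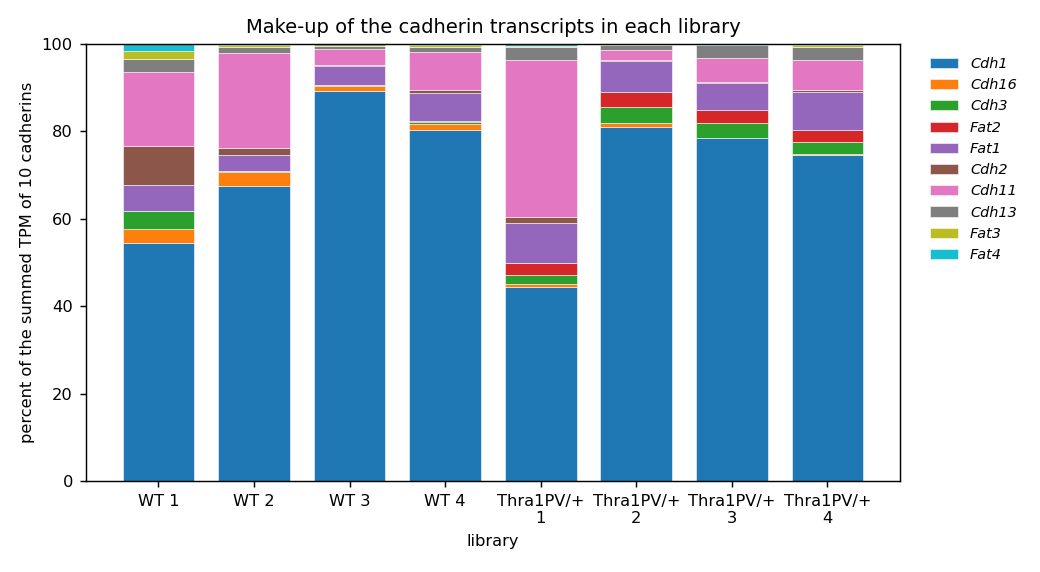
Share of each cadherin in the summed TPM of the 10 cadherins, in percent, with a stacked bar for each library. Cdh1 takes 44.4 to 89.3% of every library, the Cdh11 share is largest in Thra1PV/+ library 1 (35.9%), and the Fat2 share of 2.67 to 3.44% is visible only in the Thra1PV/+ libraries.

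E-cadherin, the adhesion molecule of simple and stratified epithelia, differed by less than the spread between libraries. Cdh1 (chr8:106603351-106670246, plus strand, GRCm38) had 336, 666, 661 and 499.8 CPM in Thra1PV/+ libraries 1 to 4 and 300.1, 491, 857 and 662 CPM in WT libraries 1 to 4. The ranges overlapped almost fully, and the lowest library of each genotype was library 1, where simple epithelium markers were also low. Its log2 fold change was -0.09 (SE 0.35, adjusted p = 0.962, edgeR's quasi-likelihood test).

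Cdh16 (Ksp-cadherin, chr8:104601911-104624396, minus strand, GRCm38), an epithelial cadherin best known from kidney tubules, was low in all libraries and lowest in Thra1PV/+. It had 2.57, 1.38, 0.245 and 0.578 CPM in Thra1PV/+ (140, 68, 12 and 33 counts) and 3.89, 7.73, 3.10 and 4.14 CPM in WT (204, 428, 156 and 198 counts). Every Thra1PV/+ library lay under every WT library. Its log2 fold change was -1.98 (SE 0.69), which was not called by edgeR's quasi-likelihood test (adjusted p = 0.386). A two-sided exact permutation test of the log2 CPM gave p = 0.0286, the smallest that 4 against 4 libraries allow. Every gene without overlap has this p, and 6.04% of all tested genes had no overlap. DESeq2 (adjusted p = 0.0749) and limma voom with quality weights (adjusted p = 0.0507) did call it, at log2 fold changes of -1.95 and -3.18. Those tools called 3.58% and 1.71% of all genes.

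Fat2, a giant cadherin known from epithelial cells in culture, from skin keratinocytes and from the cerebellum, showed the largest difference of the 10. It lies on chr11:55250609-55336564 (minus strand, GRCm38). Thra1PV/+ libraries 1 to 4 held 90.1, 95.1, 79.5 and 66.4 CPM, from 4907, 4687, 3892 and 3794 counts. WT libraries 1 to 4 held 0.0572, 0.957, 0.438 and 0.670 CPM, from 3, 53, 22 and 32 counts. The genotypes were far apart, and the Thra1PV/+ libraries resembled each other (82.8 ± 12.7 CPM, SD, n = 4). Its log2 fold change was 7.28 (SE 0.68, adjusted p = 0.0039, edgeR's quasi-likelihood test), and leaving out any 1 library kept the call, at 6.95 to 7.77 with adjusted p-values of 0.00113 to 0.0285. Fat2 was called in 17 of the 17 alternative settings that tested it. The exact permutation test gave p = 0.0286, the smallest it allows, as for every gene without overlap.

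P-cadherin (Cdh3, chr8:106510891-106557297, plus strand, GRCm38), which ends 46053 bases before the start of Cdh1 on the same strand, was even across the Thra1PV/+ libraries and uneven across WT. It had 21.7, 30.3, 29.4 and 20.9 CPM in Thra1PV/+ and 23.8, 0.957, 2.13 and 4.69 CPM in WT. A single WT library, number 1, reached the Thra1PV/+ range, and the other 3 lay far under it. The log2 fold change was 1.69 (SE 0.87) and was not called (adjusted p = 0.593, edgeR's quasi-likelihood test). Without WT library 1 it was 3.34 and was called (adjusted p = 0.0579, edgeR), in a fit that called 0.901% of its genes. With all libraries, limma voom with quality weights, which lowers the weight of libraries that stand apart, also called it (2.80, adjusted p = 0.0866). Within a library, the log2 ratio of Cdh3 to Cdh1 on the TPM scale was -4.37, -4.45, -4.49 and -4.71 in Thra1PV/+ and -3.71, -9.31, -8.35 and -6.93 in WT. This ratio varied little among the 4 Thra1PV/+ libraries, with an SD of 0.14 in log2, against 2.44 in WT and 1.20 in WT without library 1. On CPM per kilobase of exon the SD in Thra1PV/+ was 0.28.

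Of 9 markers of squamous basal cells, 8 had a higher fitted level in Thra1PV/+, the libraries with high Fat2. The exception was Dst (log2 fold change -0.31, adjusted p = 0.837, edgeR's quasi-likelihood test). Called higher were 5 of the 9 (Krt5, Krt14, Krt15, Trp63 and Col17a1), beside 0.924% of all tested genes, and none was called lower. The list was chosen with earlier results of these data known. The summed level of the 9 markers was 2740 to 4380 CPM in Thra1PV/+ and 287 to 610 CPM in WT. The keratin Krt5 had 897 to 1930 CPM in Thra1PV/+ and 0.305 to 18.1 CPM in WT. Trp63, the transcription factor that maintains basal epithelial cells, had 53.2 to 93.5 CPM and 0.458 to 2.04 CPM. WT library 1, the WT library with high Cdh3, was the lowest for Krt5 and Trp63 and had 0.00 CPM of Krt14, and its smooth muscle myosin Myh11 was at 1752 CPM, where WT libraries 2 to 4 had 67.3 to 101 CPM. The same library was also the highest of the WT libraries for Cdh2, Cdh13, Fat3 and Fat4. The part of basal cells in the Fat2 difference and of smooth muscle in the Cdh3 level of WT library 1 was not tested.

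**Figure D3:**
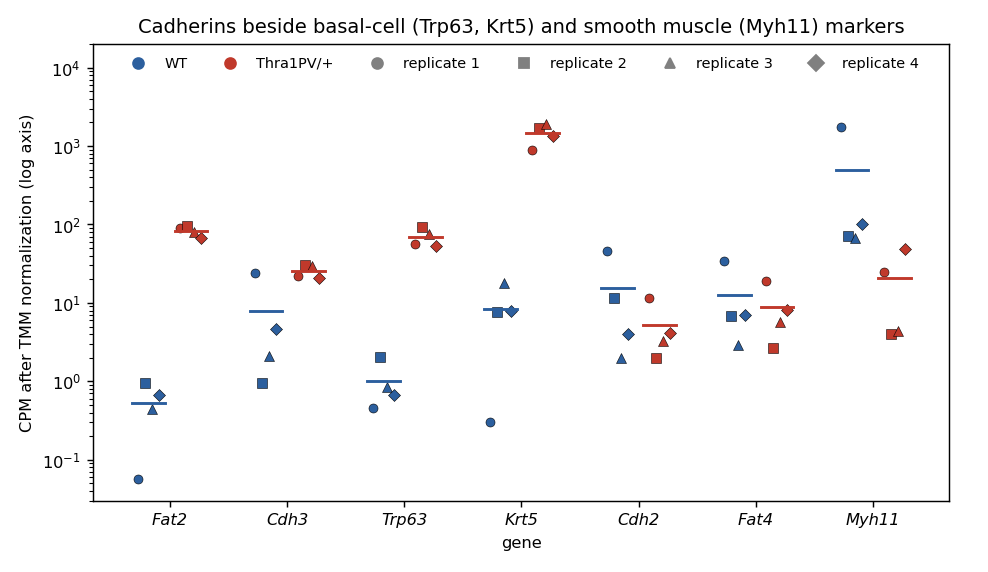
CPM (log axis) of Fat2, Cdh3, Cdh2 and Fat4 beside basal-cell markers (Trp63, Krt5) and a smooth muscle marker (Myh11), with a symbol for each replicate number and a bar at the genotype mean. WT library 1 (blue circle) reaches the Thra1PV/+ range for Cdh3 at 23.8 CPM while its Krt5 is 0.305 CPM and its Myh11 is 1752 CPM.

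Fat1, the most widely expressed Fat cadherin and the paralog with the highest level here, was moderately higher in Thra1PV/+. It lies on chr8:44935447-45052257 (plus strand, GRCm38). The Thra1PV/+ libraries had 183, 173, 161 and 154 CPM, and the WT libraries had 96.8, 81.8, 123 and 123 CPM. All Thra1PV/+ libraries lay above all WT libraries, and the spread within a genotype was small. The log2 fold change of 0.66 (SE 0.16) was below the fold change of 2, and its adjusted p was 0.187 by edgeR's quasi-likelihood test. The exact permutation test gave p = 0.0286, the smallest it allows, as for every gene without overlap. Over the 18 alternative settings its adjusted p ranged from 0.0255 to 0.476, and its fold change stayed under 2 in all of them.

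The start regions of Fat2 and Fat1 are shown because these were the cadherins whose libraries were all higher in Thra1PV/+ than in WT. RefSeq start windows (GRCm38.p6, 250 bases before and 50 after the start) were at hand for 4 of the 10 genes, Fat1 to Fat4. Capitals mark matches, on either strand, to 6 motifs: the thyroid hormone response half-site AGGTCA, the Snail and Zeb E-box CACCTG, the GC box GGGCGG, the TATA box TATAAA, the AP-1 site TGANTCA and the TEAD site CATTCC. A single half-site is only a part of a response element.
Fat2, chr11:55312208-55312507, minus strand: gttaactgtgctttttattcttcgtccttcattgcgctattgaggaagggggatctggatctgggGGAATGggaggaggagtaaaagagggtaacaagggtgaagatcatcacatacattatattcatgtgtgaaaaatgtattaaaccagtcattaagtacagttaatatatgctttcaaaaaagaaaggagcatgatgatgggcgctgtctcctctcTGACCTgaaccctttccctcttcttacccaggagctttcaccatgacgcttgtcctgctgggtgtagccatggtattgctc
Fat1, chr8:44949958-44950257, plus strand: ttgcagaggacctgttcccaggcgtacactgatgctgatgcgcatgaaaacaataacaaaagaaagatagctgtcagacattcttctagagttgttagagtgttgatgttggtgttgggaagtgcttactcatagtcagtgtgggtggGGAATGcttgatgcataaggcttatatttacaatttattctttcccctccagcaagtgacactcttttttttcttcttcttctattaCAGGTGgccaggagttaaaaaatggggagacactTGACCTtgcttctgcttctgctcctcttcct

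Both windows held AGGTCA on the strand opposite to the gene, beginning at position -31 for Fat2 and 20 for Fat1, where the start is position 1 and the base before it -1. Both also held CATTCC on the opposite strand, at -185 and -102, and the Fat1 window held CACCTG at -15. The windows of Fat3 and Fat4 held none of the 6 motifs. Over all 32851 windows of this length, 16.3% held AGGTCA, 14.7% held CATTCC and 20.2% held CACCTG, so such matches were common. These RefSeq starts lie 11 (Fat2) and 6 (Fat1) bases before the start codon, so the Fat1 AGGTCA lies after the start codon. GENCODE M21 also lists transcripts that begin 24307 and 14761 bases further upstream, so both windows lie within their genes. Which start was used in endometrium was not tested. For a transcript from those upstream starts, the marked matches would not lie near the start. No binding was measured here.

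Of the 5 cadherins grouped here as mesenchymal (Cdh11, Cdh2, Cdh13, Fat3 and Fat4) none was called, and their levels varied widely between libraries of a genotype. The grouping was made beforehand, and which cells held these transcripts was not tested. Cadherin-11, a marker of stromal fibroblasts (chr8:102632095-102785642, minus strand, GRCm38), had 295, 17.6, 43.9 and 52.6 CPM in Thra1PV/+ and 110.0, 183, 37.0 and 76.1 CPM in WT. Its levels spanned a wide range in each genotype, and the highest libraries were those with the highest stromal markers. The log2 fold change was 0.01 (SE 0.85, adjusted p = 0.998, edgeR's quasi-likelihood test). It turned negative without Thra1PV/+ library 1 (-1.37, adjusted p = 0.416 by edgeR), so no direction can be given.

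N-cadherin (Cdh2, chromosome 18, GRCm38) had 11.5, 1.99, 3.25 and 4.17 CPM in Thra1PV/+ and 45.3, 11.5, 1.97 and 3.98 CPM in WT. WT library 1, with its smooth muscle markers, was the highest by far, and the remaining libraries of the genotypes overlapped. The log2 fold change was -1.59 (SE 0.98, adjusted p = 0.658, edgeR's quasi-likelihood test) and -0.12 without WT library 1.

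Cdh13 (T-cadherin, chr8:118283733-119324921, plus strand, GRCm38) is anchored to the membrane by a lipid and lacks the cytoplasmic tail that binds catenins. It had 24.5, 8.54, 21.8 and 19.0 CPM in Thra1PV/+ and 15.4, 9.59, 5.01 and 7.12 CPM in WT. Of the Thra1PV/+ libraries 3 lay above every WT library, and library 2, with the fewest stromal transcripts, lay among them. The log2 fold change was 0.99 (SE 0.42) and was not called (adjusted p = 0.499, edgeR's quasi-likelihood test).

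Fat3 (chr9:15910189-16501285, minus strand, GRCm38), known mainly from the nervous system, had 2.57, 0.954, 1.29 and 4.55 CPM in Thra1PV/+ and 14.9, 6.46, 2.71 and 3.66 CPM in WT. Fat4 (chr3:38886940-39011985, plus strand, GRCm38), the receptor for Dachsous cadherins in planar polarity, had 18.9, 2.66, 5.72 and 8.04 CPM in Thra1PV/+ and 33.9, 6.77, 2.88 and 6.93 CPM in WT. WT library 1 was again the highest for each, and the genotypes overlapped. The log2 fold changes were -1.56 (SE 0.68, adjusted p = 0.509) and -0.52 (SE 0.83, adjusted p = 0.897) by edgeR's quasi-likelihood test, and that of Fat4 became 0.71 without WT library 1.

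**Figure D4:**
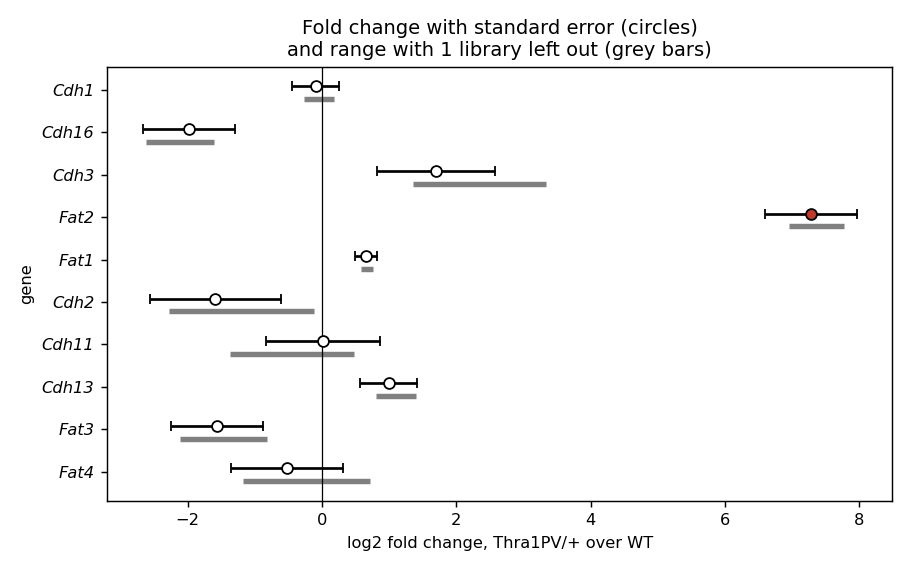
Log2 fold change of each cadherin, Thra1PV/+ over WT (circles, filled where called), with its standard error (black bars) and the range over the 8 fits that each leave out 1 library (grey bars). Only the Fat2 circle is filled, and the grey bars of Cdh1, Cdh11 and Fat4 cross 0 while that of Cdh3 runs from 1.35 to 3.34.

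Since the amount of stroma and epithelium differed between libraries, each cadherin was also expressed relative to the mean log2 CPM of a marker list. The list was 10 simple epithelium markers for Cdh1, Cdh16, Cdh3, Fat2 and Fat1, and 9 stromal markers for the others, so the basal-cell genes Cdh3 and Fat2 were set against simple epithelium and not against basal cells. This comparison was added after the values were seen, it was made for all 10 genes, and its p-values are two-sided exact permutation p-values without adjustment. E-cadherin lay 0.47 ± 0.15 above the epithelial markers in Thra1PV/+ and 0.71 ± 0.31 above them in WT (SD, n = 4, exact permutation p = 0.20). Cadherin-11 lay 0.81 ± 0.29 below the stromal markers in Thra1PV/+ and 1.47 ± 0.40 below them in WT (exact permutation p = 0.0571). Its wide spread in CPM was thus much smaller relative to stroma.

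T-cadherin was at -3.99, -2.10, -1.86 and -2.41 relative to the stromal markers in Thra1PV/+ and at -4.84, -5.63, -4.30 and -4.47 in WT. These groups did not overlap, and the difference was 2.22 (exact permutation p = 0.0286, the smallest possible, and 0.0571 without WT library 1). More of this difference came from the reference than from Cdh13, whose own log2 CPM differed by 1.01. Whether cells other than stroma, such as basal cells, held part of the Cdh13 transcripts was not tested. The mean log2 CPM of the stromal markers was 6.69 ± 1.42 in Thra1PV/+ and 7.91 ± 1.12 in WT (SD, n = 4), a difference of -1.21, and none of the 9 markers was called. Fat2 differed by 7.40 relative to the epithelial markers (exact permutation p = 0.0286), and P-cadherin by 2.48 (exact permutation p = 0.143). Fat1 differed by 0.48 (exact permutation p = 0.314) and Cdh16 by -2.51 (exact permutation p = 0.0857). Relative to these markers the genotypes overlapped for Fat1 and for Cdh16, unlike in CPM. Against the stromal markers, Cdh2 differed by 0.29 (exact permutation p = 0.657), Fat3 by -0.28 (exact permutation p = 0.657) and Fat4 by 0.97 (exact permutation p = 0.114).

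**Figure D5:**
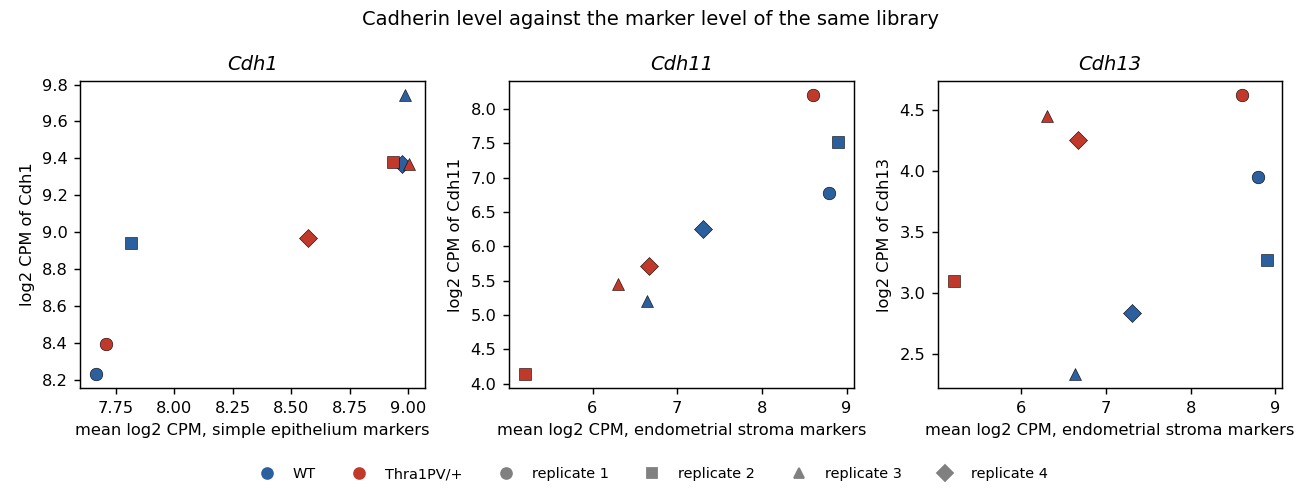
Log2 CPM of Cdh1, Cdh11 and Cdh13 (vertical axes) against the mean log2 CPM of the simple epithelium or stromal markers in the same library (horizontal axes), with a point for each of the 8 libraries and a symbol for each replicate number. Cdh11 is lowest in the library with the lowest stromal markers (Thra1PV/+ library 2), and at like stromal levels the Cdh13 points of Thra1PV/+ lie above those of WT.

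The partners of these cadherins were read from gene lists that were chosen with earlier results of these data known. Over all tested genes, 0.990% were called, 9.77% had an unadjusted p under 0.05 and the median log2 fold change was -0.05. Of 15 catenins, nectins and linked proteins of the adherens junction, 13 were tested, 1 was called higher and none lower (median log2 fold change -0.02). An unadjusted p under 0.05 was found for 3 of them. The called gene was Nectin1, a nectin that starts cell contacts and is strong in stratified epithelia. It had 49.1, 100.5, 83.7 and 67.8 CPM in Thra1PV/+ and 14.4, 9.61, 7.04 and 10.6 CPM in WT, without overlap. Its log2 fold change was 2.85 (SE 0.29, adjusted p = 0.0060, edgeR's quasi-likelihood test).

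Of 25 other cadherins and calsyntenins, 12 were tested and edgeR called none, with 2 at an unadjusted p under 0.05 beside 9.77% of all tested genes. Those 2 were Clstn2 (log2 fold change -3.43, adjusted p = 0.339, edgeR) and Cdh4, R-cadherin (-1.38, adjusted p = 0.444, edgeR). Clstn2 had its highest level, 6.24 CPM, in WT library 1. Cdh4 had 6.89, 1.79, 3.06 and 3.64 CPM in Thra1PV/+ and 4.79, 16.0, 13.1 and 6.03 CPM in WT, and the genotypes overlapped.

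Fat cadherins signal with Dachsous ligands and planar polarity proteins. Of 11 such genes 10 were tested and edgeR called none, with 1 at an unadjusted p under 0.05. The smallest p-values were those of Vangl1, a core polarity gene (log2 fold change 0.47, adjusted p = 0.498), and Lix1l (-0.63, adjusted p = 0.778). In the Hippo pathway, which Fat cadherins regulate in flies, 19 of 19 genes were tested and none was called. An unadjusted p under 0.05 was found for 4, beside 9.77% of all tested genes. The median log2 fold change was -0.28, beside -0.05 over all tested genes. Ccn2, a transcriptional target of YAP, had 13.6, 23.7, 34.7 and 46.4 CPM in Thra1PV/+ and 152, 44.7, 158 and 98.2 CPM in WT. WT library 2 lay within the Thra1PV/+ range, and the log2 fold change was -1.94 (adjusted p = 0.193, edgeR). The kinase gene Stk3 came next (-0.42, adjusted p = 0.394, edgeR).

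Among 9 repressors of E-cadherin (Snail, Zeb and Twist families and E proteins), edgeR called none, and 0 had an unadjusted p under 0.05. The smallest p-values were those of Twist2 (log2 fold change -0.83, adjusted p = 0.712) and Zeb1 (-0.84, adjusted p = 0.782). Of 10 epithelial transcription and splicing factors, 2 were called higher, beside 0.924% of all tested genes. Both are Grainyhead-like factors, which act in the epidermal barrier. Grhl1 had 14.6 to 39.9 CPM in Thra1PV/+ and 1.69 to 3.40 CPM in WT (3.35, adjusted p = 0.013, edgeR), and Grhl3 had 7.44 to 32.1 CPM and 0.229 to 1.97 CPM (4.32, adjusted p = 0.060, edgeR). Of 8 genes of cadherin shedding and turnover none was called, with 2 at an unadjusted p under 0.05, Mmp3 (-3.68, adjusted p = 0.444) and Adam15 (-0.41, adjusted p = 0.489) by edgeR.

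The genes that varied most like a cadherin across the 8 libraries, after the genotype means were removed, differed from cadherin to cadherin. They were picked as the highest Pearson r among genes whose log2 CPM averaged 2 or more, and are given as a description. For Cdh1 they were the desmosomal cadherin gene Dsc2 (r = 0.995), Fkbp2 (0.994) and Bpnt1 (0.994). For Fat2 they were Med14 (0.968), the basal keratin gene Krt15 (0.967) and Nt5c2 (0.962), but the WT values of Fat2 rest on 3 to 53 counts. For Cdh3 they were Tes (0.980), Fzd7 (0.979) and Plekhg2 (0.978), and for Cdh11 Bhlhb9 (0.995), Naalad2 (0.994) and D430019H16Rik (0.993). The r values of Cdh3 lean on WT library 1, which had 23.8 CPM where the other WT libraries had 0.957 to 4.69 CPM.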

How the data were processed

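Bulk RNA-seq data of endometrium cut by laser from 4 Thra1PV/+ and 4 WT mice were analysed. The authors trimmed paired-end reads from stranded libraries with Trimmomatic and quantified them with Salmon (mouse genome mm10), and they deposited estimated counts per gene without normalization. The tool versions and annotation release are not given in the sources used here. The deposited TPM values had nearly the same sorted values in all libraries (largest difference 0.291), the form quantile normalization gives. That table held 1 further column of values with no matching sample, which was not used.

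Estimated counts were rounded and tested with edgeR 4.0.16 (R 4.3.3): filterByExpr (minimum count 10, total 15), TMM, the quasi-likelihood test with genotype as the only term, and Benjamini-Hochberg adjustment over 18174 genes. A standard error is the absolute log2 fold change divided by the root of F. Log2 CPM used a prior count of 2. Single values were compared by two-sided exact permutation over 70 arrangements (smallest p 0.0286). Identifiers without a symbol held at most 0.00899% of a library's counts. DESeq2 1.42.0, which the authors used, and limma 3.58.1 were alternatives, and genes for which DESeq2 gave no adjusted p were left out of its percentage. Scripts were tested on simulated data.

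Positions are from GENCODE M21 (GRCm38) and start windows from RefSeq (GRCm38.p6). Genes on the opposite strand that overlap exons of Fat1 and Fat4 had 0 counts in every library. The members, marker lists and gene lists were chosen with earlier results of these data known. Named genes are the 10 cadherins, Thra, marker genes, from each gene list up to 4 called genes (or the 2 with the smallest p), and the 3 genes most like each of Cdh1, Cdh3, Cdh11 and Fat2.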

Additional observations from a re-analysis of the deposited data

How the results depend on the processing

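Relative to edgeR with all 8 libraries, 162 of 179 alternative fold changes of single cadherins kept their direction and side of the threshold. Leaving out each library in turn gave log2 fold changes of -0.26 to 0.18 for Cdh1, -2.62 to -1.61 for Cdh16, 1.35 to 3.34 for Cdh3, 6.95 to 7.77 for Fat2, -2.28 to -0.12 for Cdh2, -1.37 to 0.47 for Cdh11, 0.80 to 1.39 for Cdh13, 0.58 to 0.75 for Fat1, -2.11 to -0.82 for Fat3 and -1.17 to 0.71 for Fat4. It gave 1 to 2 called cadherins and 81 to 167 called genes. The cause of the other shifts was not tested. Cdh1 turned positive with limma voom (0.046) and with limma on TPM plus 1 (0.022) or plus 0.1 (0.023), and Cdh11 turned negative with limma voom (-0.93) and on TPM plus 1 (-0.38) or plus 0.1 (-0.43). Cdh16 was called by DESeq2 (-1.95) and limma voom (-3.18), and Cdh3 by limma voom (2.80). Called cadherins numbered 2 with DESeq2, 3 with limma voom and 0 with at least 10 counts required in every library, a filter that removes Fat2, so that Fat2 has no value there. All called genes numbered 791 with DESeq2, 311 with limma voom, 81 with that filter and 119 at an adjusted p of 0.05. No pairing by replicate number was seen: the deviations of same-numbered libraries correlated at 0.27, -0.44, 0.34 and -0.16. These correlations cannot exclude a pairing, because the libraries also differed in the tissue they held. With the replicate number as a block 82 genes were called, Fat2 stayed called (7.50, adjusted p = 0.042 by edgeR), Cdh11 was at -0.44, and not every library correlated best with its own number.

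Without WT library 1, the WT log2 ratio of Cdh3 to Cdh1 was -8.20. On CPM per kilobase of exon in place of TPM, the Cdh16 share in WT was 0.891%, the Fat2 share in Thra1PV/+ 3.71%, the Cdh13 share in Thra1PV/+ 1.10% and the log2 ratio of Cdh3 to Cdh1 in Thra1PV/+ -4.31. The Thra1PV/+ minus WT difference of Fat3 relative to the stromal markers was -0.28 with their mean and 0.046 with their median. Without WT library 1, these differences relative to marker lists were 3.58 for Cdh3 and 1.35 for Fat4 (exact permutation p = 0.0286 each, 4 against 3 libraries) and 2.21 for Cdh13 (exact permutation p = 0.0571). Cdh16, Fat3 and the WT level of Fat2 rest on few counts.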
